A study of Mus musculus with 15 samples.

Results

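The Hox genes encode homeodomain transcription factors and lie in 4 chromosomal clusters, Hoxa to Hoxd. The genes analysed were all those measured by a probe set carrying 1 gene symbol that consisted of Hox, a cluster letter and a number. These were 37 of the 39 mouse Hox genes in RefSeq and 37 of the 19296 genes in the table. The Hoxa cluster contributed 10 genes and the Hoxb, Hoxc and Hoxd clusters 9 each, all with a single probe set. The rule uses no measured value.

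RNA came from bone marrow cells of C57Bl/6 mice, sorted by flow cytometry, and was measured on 15 Affymetrix arrays. Haematopoietic stem cells (HSC, lineage-negative, c-Kit+, Sca-1+, Flk2-, CD48-, CD150+) were taken from old mice of 22 to 30 months (3 arrays) and from young mice of 6 to 12 weeks (5 arrays). Granulocyte/macrophage progenitors (GMP, lineage-negative, c-Kit+, Sca-1-, CD34+, Fcγ receptor+) came from old (3 arrays) and young mice (4 arrays) of the same age ranges. All mice were labelled male, and no genetic change or treatment is given for any group. Whether each array came from 1 mouse or pooled mice is not labelled, so the p-values rest on variation among arrays, which may be technical. The series title places the data in a study of replication stress in ageing HSC.

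Within a cluster the genes are numbered by position, and genes of the same number in different clusters, called paralogues, descend from 1 ancestral gene. In embryos the number sets where along the body axis a gene is active. In blood formation the A and B clusters are the ones known for activity in stem and progenitor cells, where Hox proteins bind DNA together with TALE homeodomain partners of the Meis and Pbx families. Trithorax complexes built around Kmt2a (MLL) keep Hox genes active and Polycomb complexes keep them silent.

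The sorts were checked by marker genes. The 8 of 10 HSC markers measured (Procr and Slamf1 among them) had a mean level of 9.24 to 9.87 log2 on the HSC arrays and 7.03 to 7.28 on the GMP arrays, and the 9 GMP markers (Mpo and Elane among them) had 10.31 to 10.79 on GMP arrays and 6.71 to 6.91 on HSC arrays. Markers of some other cell types also differed between the sorts. The mast cell and basophil list had a mean of 8.05 to 8.62 on GMP arrays and 6.21 to 6.78 on HSC arrays, where 4 of its 5 genes (all except Gata2) lay below background. The mature neutrophil list ran from 7.26 to 8.52 on GMP arrays and from 6.31 to 6.82 on HSC arrays, and the megakaryocyte list from 8.18 to 8.76 on HSC arrays and from 7.17 to 7.77 on GMP arrays. The part of these markers in the Hox differences was not tested, and in such bulk samples fewer cells of a type and less RNA per cell cannot be told apart. Xist is expressed from the inactive X chromosome of females. Against the male label, it was over 1 log2 above the highest old array on 7 of the 9 young arrays (4 HSC, 3 GMP). Y-linked genes (Kdm5d, Eif2s3y and Uty) averaged 4.94 on replicate 4 of young HSC and 5.20 on replicate 4 of young GMP. On the old arrays they averaged 8.45 to 8.80, and on young HSC replicates 3 and 5, with raised Xist, 8.47 and 8.42. In comparisons of old with young arrays, sex make-up and age cannot be told apart. Counts of called genes that use young arrays are therefore also given without these 7, which leaves 1 young HSC and 1 young GMP array assumed to vary like the other groups.

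Promoter sequence was available for 21 of the 37 genes. The windows below show the bases upstream of the RefSeq starts of 4 Hoxa genes with successive numbers, because Hoxa5, Hoxa6 and Hoxa9 differed between the cell types in the results that follow while Hoxa7 did not pass the test. All are on the minus strand of GRCm38.p6, written 5′ to 3′, with CG dinucleotides, the sites of DNA methylation, in capitals. The windows are chr6:52204588-52204837 for Hoxa5, chr6:52208673-52208922 for Hoxa6, chr6:52218574-52218823 for Hoxa7 and chr6:52227371-52227620 for Hoxa9.
Hoxa5: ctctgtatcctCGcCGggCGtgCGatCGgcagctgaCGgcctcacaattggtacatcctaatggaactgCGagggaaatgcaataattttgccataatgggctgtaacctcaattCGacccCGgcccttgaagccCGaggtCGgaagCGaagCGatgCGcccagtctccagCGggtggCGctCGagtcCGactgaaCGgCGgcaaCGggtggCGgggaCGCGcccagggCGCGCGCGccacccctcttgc
Hoxa6: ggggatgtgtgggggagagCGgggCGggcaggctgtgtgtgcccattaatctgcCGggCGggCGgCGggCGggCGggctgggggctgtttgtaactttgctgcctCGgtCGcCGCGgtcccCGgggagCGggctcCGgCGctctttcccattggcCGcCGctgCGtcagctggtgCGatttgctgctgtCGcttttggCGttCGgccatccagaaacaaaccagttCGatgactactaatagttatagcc
Hoxa7: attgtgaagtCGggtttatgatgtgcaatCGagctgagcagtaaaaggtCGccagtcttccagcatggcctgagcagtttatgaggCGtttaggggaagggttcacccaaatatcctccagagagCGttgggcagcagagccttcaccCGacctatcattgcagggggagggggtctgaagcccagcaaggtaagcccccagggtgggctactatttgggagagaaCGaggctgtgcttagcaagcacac
Hoxa9: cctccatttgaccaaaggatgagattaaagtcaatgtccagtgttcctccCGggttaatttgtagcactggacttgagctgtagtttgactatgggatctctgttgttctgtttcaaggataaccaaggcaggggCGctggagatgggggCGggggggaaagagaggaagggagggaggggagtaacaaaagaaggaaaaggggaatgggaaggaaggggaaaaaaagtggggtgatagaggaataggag
The Hoxa5 window held 28 CG dinucleotides, that of Hoxa6 24, that of Hoxa7 7 and that of Hoxa9 3, so the 3 genes that were higher in HSC spanned both ends of this range. Across the Hox genes the 23 windows (some genes have more than 1 start) had a median of 13 CG, against 6 in the 32851 promoter windows of all genes. The 8 windows of the Hox genes called higher in HSC had a median of 16 and the other 15 windows 12. The letters CCAAT occurred on either strand in 13 of the 23 Hox windows (56.5%) and in 33.8% of all promoters. TGACAG, the core bound by Meis proteins, occurred in 2 Hox windows (8.7%) against 15.9% of all, and TGATNNAT, a composite Pbx and Hox motif, in 3 (13%) against 7.68%. These matches describe the letters in the windows only, and the windows of 1 cluster can overlap transcripts of its other genes.

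A background level was set on each array as the 95th percentile of 1190 chemosensory receptor genes, which were taken as mostly silent in blood cells. It lay between 6.65 and 7.19 log2. A gene counted as above background in a group if it exceeded this level on every array of the group. Of the 37 Hox genes, 13 were above background in old HSC, 13 in young HSC, 9 in old GMP and 10 in young GMP. By the same rule 53.6% to 56.8% of all genes and 3.61% to 4.12% of the receptor genes passed. A stricter level, the 99th percentile, left 5, 7, 4 and 4 Hox genes in these groups.

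The clusters differed in how many genes passed. In both HSC groups 6 of 10 Hoxa genes, 6 of 9 Hoxb genes, 0 of 9 Hoxc genes and 1 of 9 Hoxd genes were above background. Hoxa4, Hoxa7, Hoxa9, Hoxb1, Hoxb3, Hoxb4, Hoxb7 and Hoxb9 were above background in all 4 groups. A second set of 5, Hoxa5, Hoxa6, Hoxa10, Hoxb5 and Hoxd10, was above background in both HSC groups but not in both GMP groups. Below background on every array were 18 genes: Hoxa11, Hoxa13, Hoxb6, Hoxb13, 8 Hoxc genes (all except Hoxc9) and Hoxd1, Hoxd3, Hoxd4, Hoxd8, Hoxd11 and Hoxd12. The remaining 6 (Hoxa2, Hoxa3, Hoxb2, Hoxc9, Hoxd9 and Hoxd13) passed on some arrays only, or in 1 group. Hoxc9, the Hoxc gene that passed anywhere, had 6.96 ± 0.21 in young GMP (SD, n = 4) and 6.83 ± 0.23 in young HSC (n = 5). Hoxd10 had 7.11 ± 0.09 in young HSC and 6.98 ± 0.21 in young GMP. A probe set below background may still have RNA in the cells, because probe sets differ in how well they bind.

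HSC and GMP of young mice were compared first. In the stem cells 9 Hox genes were higher and 1 was lower at an adjusted p under 0.05 (limma across all 19296 genes, Benjamini-Hochberg). That is 24.3% of the Hox genes called higher, where 13.6% of all genes were called higher, 10.9% lower and 24.6% either way. At an unadjusted p under 0.05 there were 14 Hox genes, with 34.2% of all genes past that threshold. The genes that were higher were Hoxa2, Hoxa3, Hoxa5, Hoxa6, Hoxa9 and Hoxa10 of the A cluster and Hoxb2, Hoxb4 and Hoxb5 of the B cluster. Of the Hoxc and Hoxd genes 0 of 9 each were called. The median difference, HSC minus GMP, was 0.62 log2 over Hoxa, 0.09 over Hoxb, -0.14 over Hoxc and -0.09 over Hoxd, beside -0.05 over all genes. The values of HSC lay entirely above those of GMP for 10 Hox genes, and 11.7% of all genes had that pattern. They lay entirely below GMP for 1 (9.51% of all genes).

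In old mice 11 Hox genes were higher in HSC than in GMP and 0 were lower. They were 29.7% of the Hox genes, where 9.25% of all genes were called higher, 13.0% lower and 22.2% either way. At an unadjusted p under 0.05 there were 13 Hox genes, with 30.8% of all genes past that threshold. The 11 comprised the same 9 genes as in young mice, with Hoxb3 and Hoxb6 in addition. Again 0 of 9 Hoxc and 0 of 9 Hoxd genes were called. The median difference was 0.63 log2 over Hoxa, 0.40 over Hoxb, -0.01 over Hoxc and 0.05 over Hoxd, beside 0.02 over all genes. The groups did not overlap for 13 Hox genes with HSC higher, a pattern of 16.3% of all genes, and for 1 with HSC lower (18.4% of all genes).

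**Figure D1:**
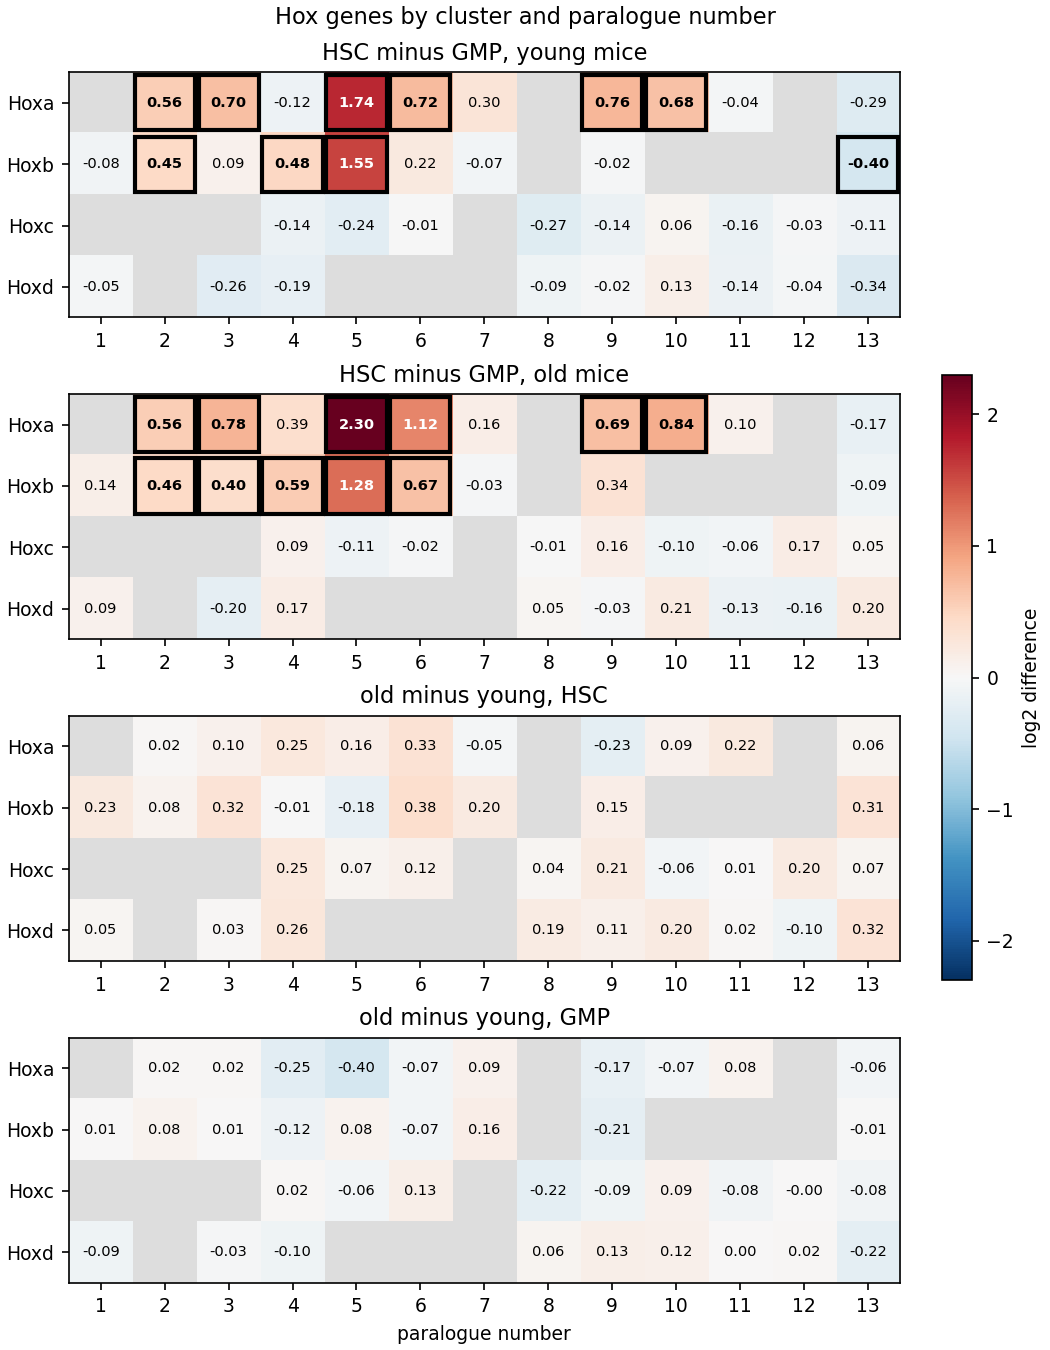
Each cell shows the log2 difference of 1 Hox gene, with clusters as rows and paralogue numbers as columns. The panels show HSC minus GMP in young and in old mice and old minus young in HSC and in GMP, black frames mark an adjusted p under 0.05, and grey cells hold no gene analysed here. The framed cells lie in the Hoxa and Hoxb rows of the upper panels, reaching 1.74 (young) and 2.30 (old) at Hoxa5, and the lower panels have none.

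Hoxa5 and Hoxb5 are paralogues of number 5, and both were called at both ages. Hoxa5, known for its part in lung and axial skeleton development, had 9.21, 8.58, 8.97, 8.35 and 8.71 log2 on the young HSC arrays and 6.81, 6.97, 7.11 and 7.21 on the young GMP arrays. On old HSC arrays it had 9.13, 8.54 and 9.12, and on old GMP arrays 6.78, 6.24 and 6.86. Every HSC array was above every GMP array. The difference was 1.74 ± 0.17 in young mice (SE, adjusted p = 2.33e-07, 3.35-fold) and 2.30 ± 0.21 in old mice (adjusted p = 1.29e-07). Only 1 of the 3 old GMP arrays was above background for Hoxa5. All 4 young GMP arrays were, but their mean of 7.02 lay near the mean background level of 6.82. The 3.35-fold is therefore best read as a lower bound.

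Hoxb5, a gene used to mark long-term HSC in mice, had 7.59, 8.11, 7.70, 7.20 and 7.46 log2 in young HSC and 6.11, 6.11, 6.03 and 6.03 in young GMP. Old HSC arrays had 7.20, 7.26 and 7.83, and old GMP arrays 6.35, 6.15 and 5.94. The cell types did not overlap, and all GMP arrays lay below background. A fold change was in such cases computed against the background level of the dim group, or its own signal where higher, and is a lower bound. Hoxb5 was at least 1.74-fold higher in young HSC (1.55 ± 0.16 log2, SE, adjusted p = 3.36e-07) and at least 1.46-fold higher in old HSC (1.28 ± 0.19, adjusted p = 5.01e-05). The third measured paralogue of number 5, Hoxc5, was below background throughout and differed by -0.24 ± 0.18 in young and -0.11 ± 0.22 in old mice, with adjusted p = 0.373 and 0.827.

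Hoxa6, which patterns the axial skeleton, had 7.77, 7.65, 7.85, 7.59 and 7.49 log2 in young HSC and 6.96, 6.82, 7.05 and 6.98 in young GMP. It had 7.99, 8.07 and 7.93 in old HSC and 7.01, 6.75 and 6.87 in old GMP. HSC were higher at both ages without overlap, by 0.72 ± 0.10 log2 in young mice (SE, adjusted p = 1.75e-05, 1.64-fold) and by 1.12 ± 0.12 in old mice (adjusted p = 1.21e-06, 2.17-fold). In GMP it was above background on 3 of 4 young and 2 of 3 old arrays. Its GMP means, 6.95 in young and 6.88 in old mice, lay at the mean background levels of 6.82 and 6.88. The folds of Hoxa6 are therefore best read as lower bounds.

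Hoxa9, which stem and myeloid progenitor cells need and which is a main driver of leukaemias with MLL rearrangement, had 8.70, 8.65, 8.72, 8.67 and 8.36 log2 in young HSC and 7.88, 7.93, 7.78 and 7.86 in young GMP. It had 8.50, 8.27 and 8.39 in old HSC and 7.49, 7.81 and 7.78 in old GMP. All arrays were above background, and HSC were higher by 0.76 ± 0.10 (SE, adjusted p = 1.46e-05, 1.69-fold) in young and 0.69 ± 0.13 (adjusted p = 4.00e-04, 1.62-fold) in old mice. Hoxa10, which also supports primitive blood cells, had 7.54, 7.27, 7.71, 7.33 and 7.31 in young HSC against 6.47, 6.70, 7.09 and 6.74 in young GMP, and 7.47, 7.33 and 7.76 in old HSC against 6.82, 6.51 and 6.71 in old GMP. These groups did not overlap within an age, with differences of 0.68 ± 0.13 (adjusted p = 6.48e-04, 1 of 4 GMP arrays above background) and 0.84 ± 0.16 (adjusted p = 6.87e-04, at least 1.56-fold).

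Hoxa7 lies between Hoxa6 and Hoxa9 by number and is switched on with Hoxa9 by MLL fusion proteins. It had 7.90, 8.09, 8.06, 7.96 and 7.92 log2 in young HSC and 7.61, 7.56, 7.69 and 7.90 in young GMP, which at 2 decimals meet at 7.90 but did not overlap. The difference of 0.30 ± 0.11 had adjusted p = 0.0502. With the replicate number as a block, 0.31 ± 0.10 had adjusted p = 0.0439. In old mice the HSC values, 7.94 ± 0.05 (SD, n = 3), overlapped those of GMP, 7.77 ± 0.24 (n = 3), with a difference of 0.16 ± 0.13 (SE, adjusted p = 0.469). The block also brought a call for Hoxa13, a gene of the digits and genital tract that was below background on every array. Its difference in young mice was -0.29 ± 0.13 (adjusted p = 0.124) and with the block -0.39 ± 0.11 (adjusted p = 0.0216).

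Hoxb4, known for expanding HSC when overexpressed, had 8.53, 8.29, 8.16, 8.58 and 8.31 log2 in young HSC and 7.79, 7.97, 8.01 and 7.78 in young GMP. Old HSC had 8.27, 8.27 and 8.55, and old GMP 7.91, 7.67 and 7.72. HSC were higher without overlap by 0.48 ± 0.11 in young (adjusted p = 0.00249, 1.40-fold) and 0.59 ± 0.13 in old mice (adjusted p = 0.00282, 1.51-fold). Hoxb3, a neighbour that acts with Hoxb4 in HSC, was called in old mice, with 8.47, 8.54 and 8.28 in HSC against 8.01, 8.07 and 8.01 in GMP (0.40 ± 0.13, adjusted p = 0.0362, 1.32-fold). In young mice its cell types overlapped, with 7.89 to 8.35 in HSC and 7.86 to 8.22 in GMP (0.09 ± 0.11, adjusted p = 0.587). The call for Hoxb3 in old mice was lost when any of old HSC replicates 1 and 2 or old GMP replicates 1, 2 and 3 was left out, and with array spread (the interquartile range) as a covariate, with adjusted p up to 0.130 over its alternatives.

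The other genes called lay near or below background. Hoxa3, needed for the thymus and parathyroid, ran from 6.85 to 7.10 in young HSC and from 5.99 to 6.57 in young GMP (0.70 ± 0.13, adjusted p = 3.87e-04, at least 1.14-fold), and from 6.75 to 7.33 in old HSC against 6.18 to 6.50 in old GMP (0.78 ± 0.16, adjusted p = 0.00111, at least 1.17-fold). Hoxa2 and Hoxb2, hindbrain and branchial arch genes, were higher by 0.56 ± 0.13 (adjusted p = 0.00323) and 0.45 ± 0.13 (adjusted p = 0.0111) in young and by 0.56 ± 0.16 (adjusted p = 0.0152) and 0.46 ± 0.15 (adjusted p = 0.0361) in old mice. Hoxb2 was on 4 of 5 young and 2 of 3 old HSC arrays above background, Hoxa2 on 1 young HSC array. In old mice Hoxa2 lost its call without old HSC replicate 2 or old GMP replicate 1 (adjusted p up to 0.0709) and Hoxb2 without any 1 of old HSC replicates 1, 2 and 3 or old GMP replicates 1 and 3, and with quantile normalization or array spread as a covariate (up to 0.141).

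Hoxb6, which expands blood progenitors when overexpressed, had 6.95, 6.71 and 6.37 in old HSC and 6.14, 5.93 and 5.96 in old GMP (0.67 ± 0.16, adjusted p = 0.00447). In young mice 6.13 to 6.50 in HSC overlapped 5.78 to 6.29 in GMP (0.22 ± 0.13, adjusted p = 0.267). The gene that was lower in young HSC was Hoxb13, a prostate and tail gene, with 5.75 to 6.20 in HSC and 6.25 to 6.61 in GMP (-0.40 ± 0.12, adjusted p = 0.0165). Both genes were below background on all 15 arrays, so their probe sets carry no fold change. The Hoxb13 call was lost without young GMP replicate 3, without young GMP replicate 4, without replicate 4 of both young groups and without the 7 young arrays of raised Xist (adjusted p up to 0.589 over its alternatives).

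**Figure D2:**
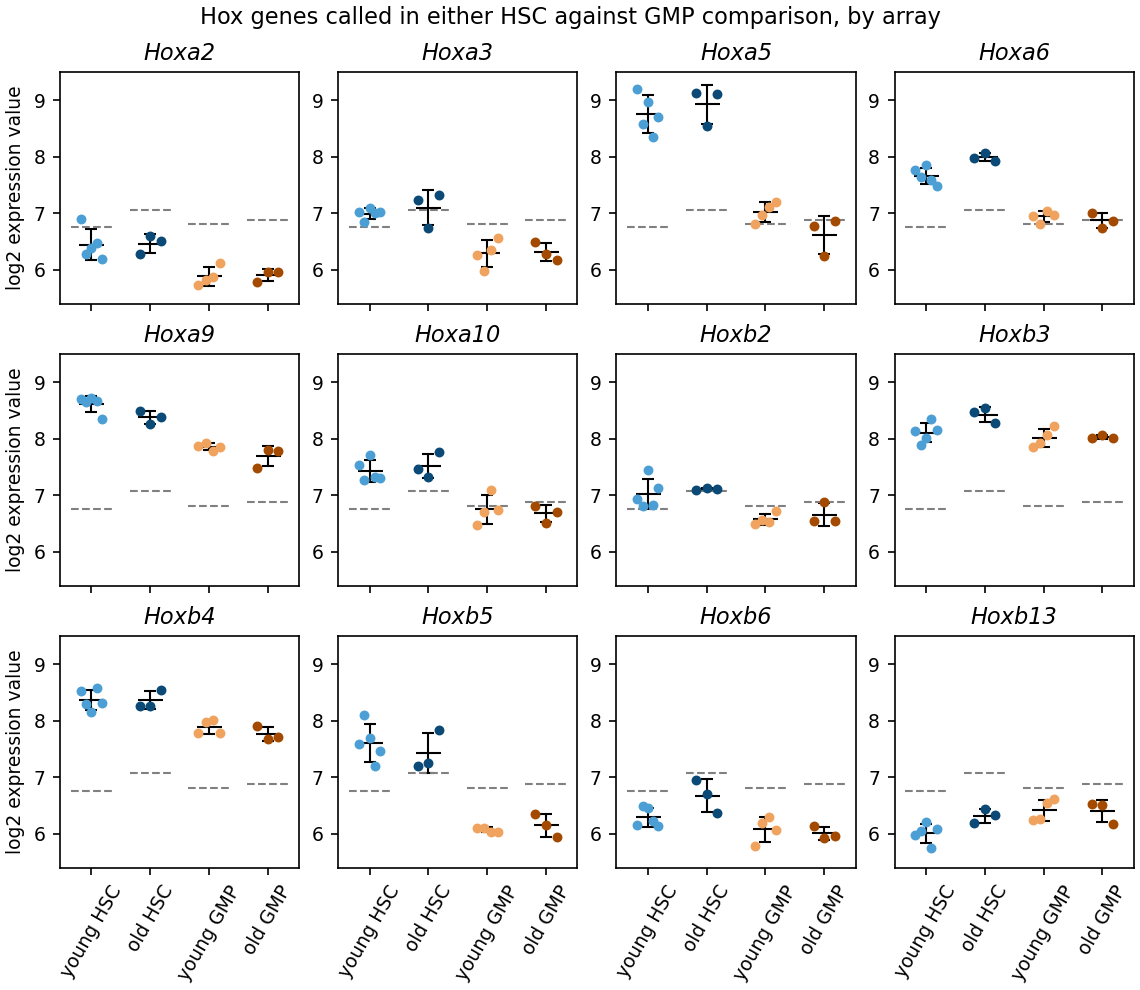
Points show the log2 value of each array for the 12 Hox genes called in 1 or both HSC and GMP comparisons, with the group mean and SD as bars and the mean background level of the group as a dashed line. Hoxa5 lies at 8.35 to 9.21 on young HSC arrays against 6.81 to 7.21 on young GMP arrays, while Hoxb6 and Hoxb13 stay below the dashed lines in every group.

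By paralogue number, both the Hoxa and the Hoxb gene were called at both ages for numbers 2 and 5, and in old mice for numbers 3 and 6 as well. At number 4 Hoxb4 was called while Hoxa4 was not, with differences of -0.12 ± 0.14 in young (adjusted p = 0.585) and 0.39 ± 0.16 in old mice (adjusted p = 0.107). At number 9 Hoxa9 was called while Hoxb9 differed by -0.02 ± 0.11 (adjusted p = 0.904) and 0.34 ± 0.13 (adjusted p = 0.0669). Numbers 1, 7, 8, 11 and 12 had 0 genes called at either age. These are values of separate probe sets, and whether paralogues differed from each other was not tested. RefSeq gene spans overlap for 6 pairs of these genes, among them Hoxa3 with Hoxa4, Hoxa5 and Hoxa6 and Hoxb3 with Hoxb4. Which transcripts the probe sets of these genes read cannot be told apart here.

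The cell type differences at the 2 ages rest on separate arrays. All 9 genes called higher in young mice (100%) were among the 11 of old mice, and 81.8% of those 11 were among the 9. Over the 37 genes the differences had Pearson r = 0.92 and Spearman rho = 0.74, given as a description across genes that share arrays. Without the 7 young arrays of raised Xist, 5 Hox genes were called in young mice: Hoxa2, Hoxa5, Hoxa6, Hoxa10 and Hoxb5. Of all genes 9.17% were then called either way. The differences of the other genes kept their sign, with 0.82 ± 0.24 for Hoxa9 (SE, adjusted p = 0.0521), 0.73 ± 0.24 for Hoxb4 (0.0792), 0.76 ± 0.29 for Hoxa3 (0.138), 0.43 ± 0.24 for Hoxb2 (0.343) and -0.28 ± 0.24 for Hoxb13 (0.589).

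**Figure D3:**
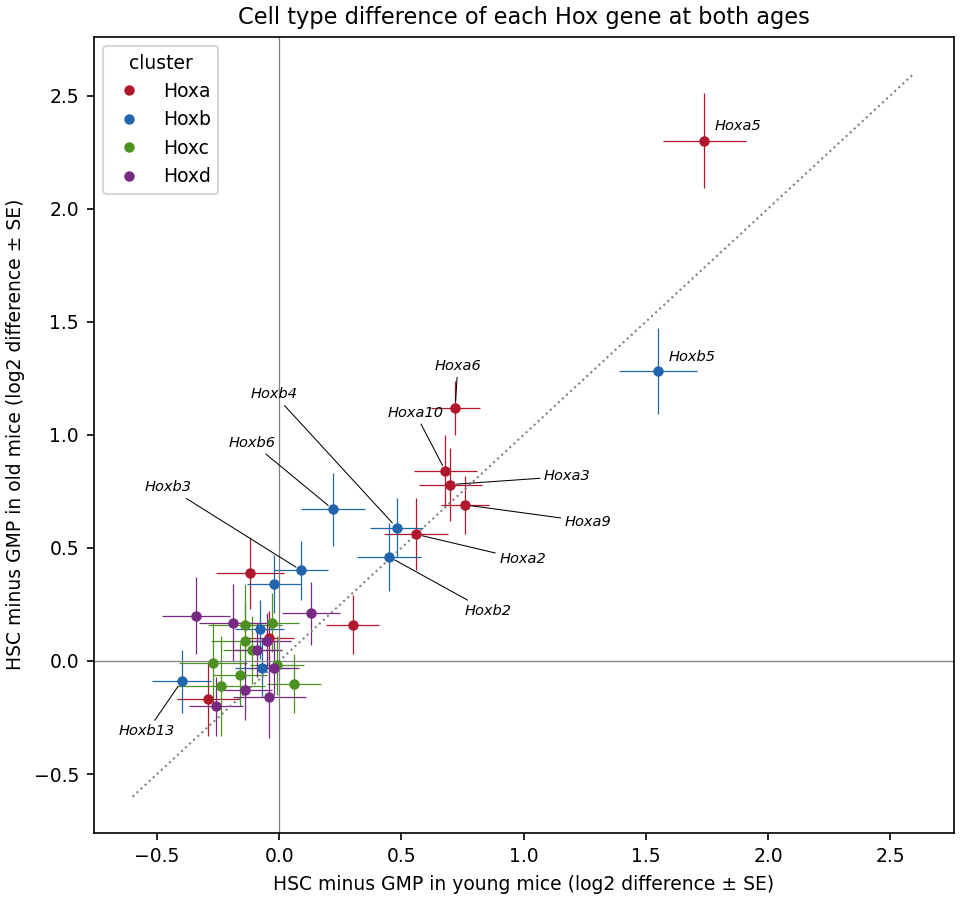
Each point is 1 of the 37 Hox genes, with HSC minus GMP in young mice on the x axis and in old mice on the y axis (log2 difference ± SE), coloured by cluster, and the dotted line marks equal differences. Names are given for the 12 genes called at either age. Hoxa5 (1.74 and 2.30) and Hoxb5 (1.55 and 1.28) lie apart, and the Hoxc and Hoxd genes gather around 0.

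Old and young HSC were compared by age, with the differences in Xist and Y-linked signal given above. No Hox gene was called: 0 of 37 at an adjusted p under 0.05, where 11.5% of all genes were called (limma, and 0 also with an intensity trend and robust moderation). Many of the 37 are dim: 18 were below background on every array, and 10 were brighter than the median gene. With only genes brighter than the median gene tested, 1 of these 10 (Hoxa6) was called, where 23.8% of the genes tested were. The share of all genes called was not stable, with 0.114% without the 7 young arrays of raised Xist, 0.544% with array spread as a covariate, 2.21% and 1.79% without old HSC replicate 1 and 2, and 27.5% without young HSC replicate 4. At an unadjusted p under 0.05 there were 5 Hox genes, with 31.4% of all genes past that threshold. The 95% intervals of all 37 differences lay within 1 log2 of 0, from -0.54 (Hoxb5) to 0.68 (Hoxb6). For the 18 genes below background on every array, Hoxb6 among them, they describe the signal of dim probe sets. They do not bound a change in the RNA of those genes. The smallest adjusted p was 0.0578 for Hoxa6, whose 3 old HSC values (7.93 to 8.07) lay above its 5 young values (7.49 to 7.85), a difference of 0.33 ± 0.11 (SE, 1.25-fold). Hoxa11, below background, was the other gene whose old values lay above all young ones, a pattern of 5.10% of all genes. Hoxb3 had 0.32 ± 0.12 (adjusted p = 0.0837), Hoxb6 0.38 ± 0.14 (0.0847) and Hoxb13 0.31 ± 0.13 (0.116). Hoxa9 had -0.23 ± 0.11 (adjusted p = 0.166), with 8.27 to 8.50 in old and 8.36 to 8.72 in young HSC, which overlap. Hoxb4 (-0.01 ± 0.12), Hoxa5 (0.16 ± 0.19) and Hoxb5 (-0.18 ± 0.17) had adjusted p between 0.466 and 0.950.

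The count in this comparison moved with single arrays and settings. Without old HSC replicate 3, Hoxb1 (0.35 ± 0.12, adjusted p = 0.0478) and Hoxb6 (0.54 ± 0.15, 0.0252) were called, with 16.7% of all genes. Without young HSC replicate 4, Hoxb3 (0.38 ± 0.12, 0.0220) and Hoxd13 (0.44 ± 0.13, 0.0197) were called, with 27.5% of all genes. Without replicate 4 of both young groups 4 genes were called, Hoxa6, Hoxb3, Hoxd4 and Hoxd13, where 32% of all genes were called. With array spread as a covariate Hoxd13 had -0.01 ± 0.15 (adjusted p = 0.992) and Hoxd4 -0.15 ± 0.12 (0.724), both turned in sign. Quantile normalization called Hoxa6 (0.44 ± 0.10, 0.0164) and Hoxb3 (0.53 ± 0.14, 0.0357), with 6.79% of all genes. Differences were positive for 31 of 37 Hox genes, with a median of 0.11 log2 beside 0.03 over all genes. Of the receptor genes 923 of 1190 were positive, with a median of 0.13, and the background level averaged 7.07 in old and 6.76 in young HSC. Among the 18 Hox genes below background everywhere, 16 were positive, with a median of 0.07. The part of this shift of dim probe sets in the Hox values was not tested.

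In GMP 0 of 37 Hox genes were called with age, and 0% of all genes were called. At an unadjusted p under 0.05 there were 0 Hox genes and 4.51% of all genes, and 0 calls were also made with an intensity trend and robust moderation. The differences ran from -0.40 ± 0.20 for Hoxa5 (adjusted p = 1.00, interval -0.81 to 0.02) to 0.16 ± 0.12 for Hoxb7, the 1 gene whose age groups did not overlap (3.10% of all genes), and all intervals lay within 1 log2 of 0. For genes below background the intervals again describe dim probe sets and do not bound a change in RNA. The median difference was -0.01, as over all genes.

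The difference between the age effects of HSC and GMP was tested directly. Of the Hox genes 0 were called, where 0.0933% of all genes were, and 5 passed an unadjusted p under 0.05 (11.2% of all genes). The trend and robust setting also gave 0. Without the 7 young arrays of raised Xist 0 Hox genes were called here, for age in HSC and for age in GMP. Hoxa6 had 0.40 ± 0.16 (adjusted p = 0.397) and Hoxa4 0.50 ± 0.21 (0.409). Hoxa5 had the highest value, 0.56 ± 0.27 (adjusted p = 0.450), with an interval reaching 1.13. The cell type differences of Hoxa5, 1.74 in young and 2.30 in old mice, therefore did not differ past the threshold.

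**Figure D4:**
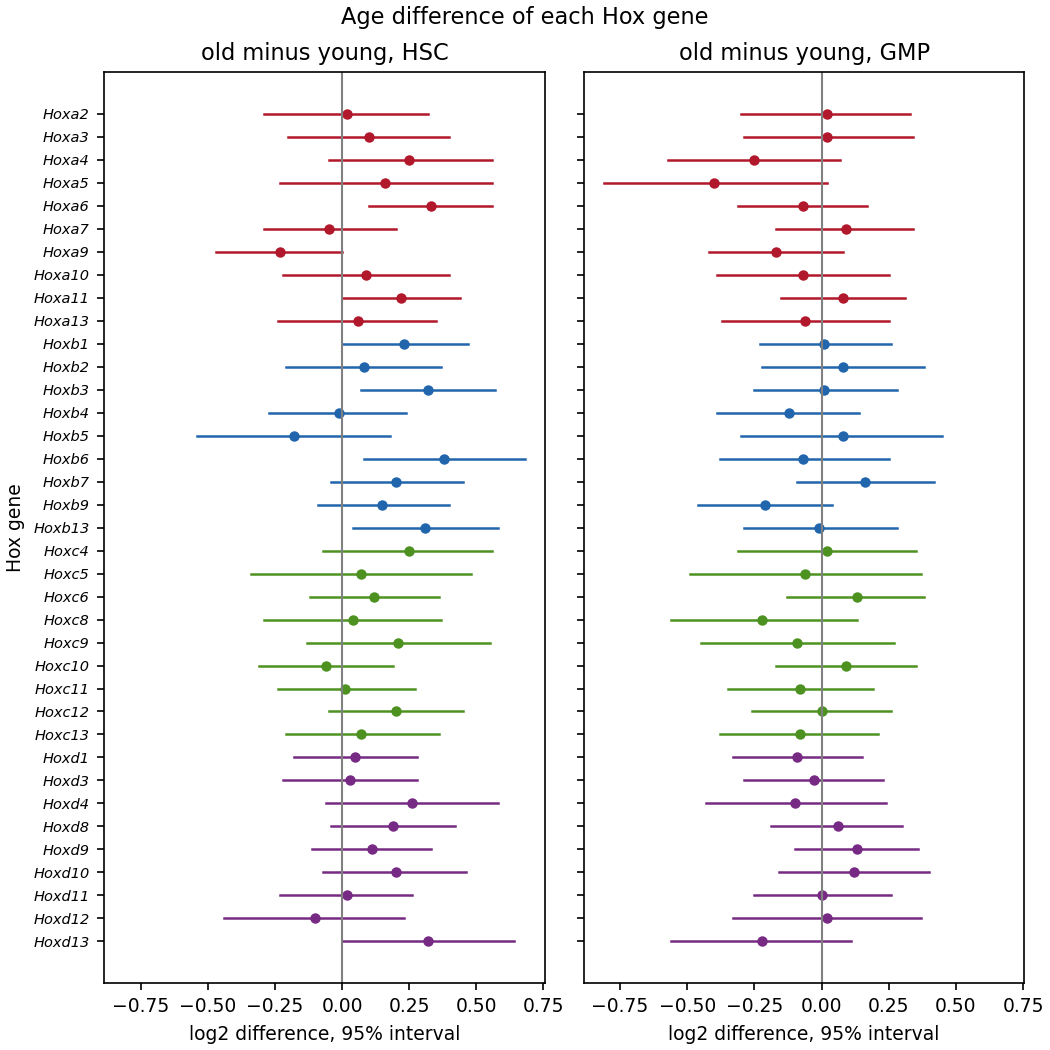
Points show old minus young in HSC (left) and in GMP (right) for the 37 Hox genes on the log2 scale, with 95% intervals as lines, coloured by cluster. All intervals lie within 1 log2 of 0, and the HSC points are positive for 31 genes. For genes below background the intervals describe the signal of dim probe sets only.

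The DNA-binding partners differed between the cell types as well. Of 8 measured TALE genes, 4 were higher in HSC in young and 4 in old mice, and 0 were lower (medians 0.36 and 0.34 log2). Of all genes 13.6% were higher in young and 9.25% in old HSC. The TALE genes higher in young HSC were 3 (Meis1, Meis2 and Pbx3) without the 7 young arrays of raised Xist. Meis1, the partner that acts with Hoxa9, had 11.66, 11.55, 11.59, 11.56 and 11.51 in young HSC and 8.48, 8.42, 7.85 and 8.53 in young GMP. Old HSC had 11.60, 11.30 and 11.69, and old GMP 8.32, 8.39 and 9.22. The gap without overlap was 3.25 ± 0.17 (adjusted p = 1.84e-11, 9.54-fold) in young and 2.89 ± 0.20 (adjusted p = 3.82e-09, 7.40-fold) in old mice. Pbx3, another partner of Hoxa9, was higher by 1.06 ± 0.14 and 1.44 ± 0.17 (adjusted p = 1.17e-05 and 4.38e-06). The GMP means of Pbx3, 6.79 in young and 6.88 in old mice, lay at the mean background levels of 6.82 and 6.88. Its differences are therefore best read as lower bounds. Pbx2 was higher in young HSC (0.43 ± 0.15, adjusted p = 0.0425), Meis3 in old HSC (0.46 ± 0.14, adjusted p = 0.0210) and Meis2 at both ages (0.53 and 0.55, below background in all groups). Of the 8, Pbx2 fell with age in HSC, from 8.78 ± 0.30 (SD, n = 5) to 8.15 ± 0.33 (n = 3), a difference of -0.62 ± 0.16 (SE, adjusted p = 0.0230), where 11.5% of all genes were called. This call was lost without the 7 arrays and with array spread as a covariate.

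Among 19 activators of Hox genes, 4 were higher and 3 lower in young HSC than in young GMP, and 3 were higher and 3 lower in old HSC. Either way these are 7 and 6 of 19, where 24.6% and 22.2% of all genes were called. Above background in at least 1 group were 18 of the 19. Of genes brighter than the median gene, tested alone, 39.3% and 39.4% were called. In young HSC 3 were higher and 0 lower without the 7 young arrays of raised Xist. Kmt2a, the trithorax methyltransferase, was higher by 0.66 ± 0.17 (adjusted p = 0.00629) and 0.95 ± 0.21 (0.00189). Mllt3, an elongation factor partner of MLL that also belongs to the HSC marker list, was higher by 2.59 ± 0.12 and 2.70 ± 0.15 (adjusted p = 8.17e-12 and 1.59e-10). Aff4, of the same elongation complex, was higher by 0.76 and 0.72. The 3 lower in young HSC were Aff1 (-0.55 ± 0.15, adjusted p = 0.00832), Cdx1 (-0.35 ± 0.10, 0.0129) and Mllt1 (-0.29 ± 0.10, 0.0333). Old HSC had lower levels of the MLL core subunits Dpy30 (-0.92 ± 0.18), Ash2l (-0.64 ± 0.14) and Wdr5 (-0.53 ± 0.14) than old GMP. With age in HSC 0 of the 19 rose and 4 fell: Wdr5 (-0.76 ± 0.13, adjusted p = 0.00294), Dpy30 (-0.72 ± 0.17, 0.0133), Men1 (-0.57 ± 0.14, 0.0187) and Ash2l (-0.40 ± 0.13, 0.0473). Of all genes 11.5% were called, and 0 of these 4 calls remained without the 7 young arrays or with array spread as a covariate. The median of the list with age was -0.10, beside 0.03 over all genes and -0.18 over genes brighter than the median gene. Of those brighter genes, tested alone, 23.8% were called with age in HSC.

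Of 18 Polycomb genes, 5 were higher and 2 lower in young HSC than in GMP, and 5 were higher and 3 lower in old HSC. Either way these are 7 and 8 of 18, beside 24.6% and 22.2% of all genes. All 18 were above background in at least 1 group. Genes brighter than the median gene, tested alone, had 39.3% and 39.4% called. In young HSC 3 were higher and 1 lower without those 7 arrays. The methyltransferases of Polycomb complex PRC2 went opposite ways. Ezh1 had 8.87 to 9.57 in young HSC and 8.17 to 8.44 in young GMP (0.88 ± 0.14, adjusted p = 7.34e-05), and Ezh2 had 10.67 to 10.98 against 11.31 to 11.52 (-0.60 ± 0.10, adjusted p = 9.05e-05). Pcgf2 and Phc1, of the PRC1 complex, were higher in young HSC by 0.91 and 0.77, and Suz12, of PRC2, was lower by -0.58 on the signed log2 scale. With age in HSC Ezh2 fell by 0.57 and Eed by 0.55 on the log2 scale (adjusted p = 0.00484 and 0.0146). These are the list's 2 calls of 18, where 11.5% of all genes and, tested alone, 23.8% of the brighter genes were called. Without the 7 young arrays 0 of the 18 were called, and with array spread as a covariate 1 (Ezh2). In GMP 0 of the TALE, activator and Polycomb genes were called with age.

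**Figure D5:**
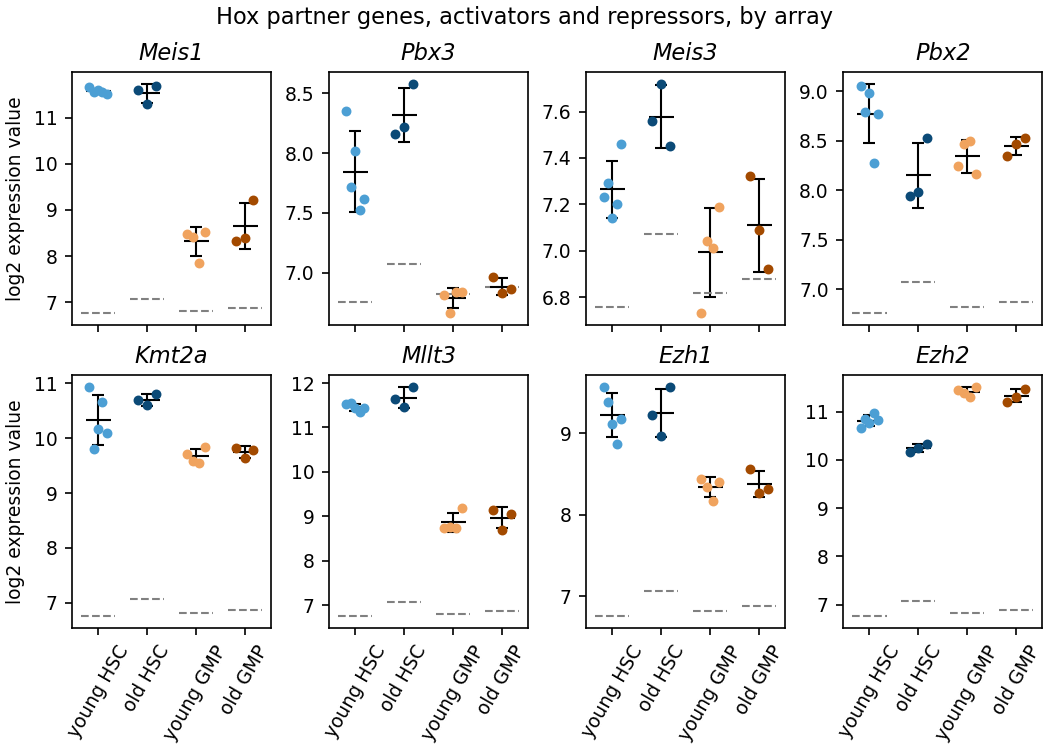
Points show the log2 value of each array for 4 TALE partner genes, the activators Kmt2a and Mllt3 and the Polycomb genes Ezh1 and Ezh2, with group mean and SD as bars and the mean background level of each group as a dashed line. Each panel has its own y axis. Meis1 lies at 11.30 to 11.69 on HSC arrays and 7.85 to 9.22 on GMP arrays, and Ezh2 is lower on HSC than on GMP arrays.

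Of 14 genes that the literature gives as dependent on Hox or Meis1 in blood cells, 9 were higher and 2 lower in young HSC than in young GMP, and 7 were higher and 4 lower in old HSC. Of all genes 13.6% were higher and 10.9% lower in young and 9.25% higher and 13.0% lower in old HSC. Of the 14, 6 were higher and 1 lower in young HSC without the 7 young arrays of raised Xist. Hlf and Camk2d were higher by 2.92 and 1.71 log2 in young and 2.86 and 1.34 in old mice. Mecom was called higher at both ages and was below background in both GMP groups, so it is given no size here. Mecom and Hlf are also HSC markers. Flt3, a cytokine receptor of multipotent progenitors that the HSC gate excludes (as Flk2), was 0.69 ± 0.11 higher in young HSC and had -0.74 ± 0.14 in old mice. It fell with age in HSC (-0.69 ± 0.12, adjusted p = 0.00341) and was the list's single gene whose age effects differed between HSC and GMP (-1.43 ± 0.18, adjusted p = 0.00280), a call lost without those arrays. Cd34, a surface marker of progenitors, was among the genes lower in HSC than in GMP at both ages, and the GMP gate selects CD34+ cells. With age in HSC Cd34 fell by 1.03 log2, and Bcl2, a survival factor, was 0.42 ± 0.12 higher (adjusted p = 0.0286). These are 3 of 14 calls with age, where 11.5% of all genes were called. Of genes brighter than the median gene, tested alone, 23.8% were called. Without the 7 young arrays 0 of the 14 were called with age in HSC, and with array spread as a covariate 1 (Cd34).

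Other transcripts of the Hox loci were compared last. Of 18 listed non-coding genes of the clusters 8 were measured, and only 2 of these were above background in any group. In the comparisons 0 were called, which for most of them rests on dim probe sets. Mir196b, which lies near Hoxa9 in the A cluster, differed by 0.32 ± 0.17 between young HSC and GMP (adjusted p = 0.194). Hoxaas2 differed by 0.22 ± 0.11 (adjusted p = 0.183), and both genes were below background in 3 groups. Of 12 genes flanking the clusters 2 were higher and 3 lower in young HSC than in GMP, and 1 was higher and 4 lower in old HSC. Either way these are 5 of 12 at each age, where 24.6% and 22.2% of all genes were called. Above background in at least 1 group were 8 of the 12. Of genes brighter than the median gene, tested alone, 39.3% and 39.4% were called. With the 7 arrays of raised Xist left out, 0 were higher and 1 (Snf8) lower in young HSC. The called flanking genes included Snx10, beside Hoxa (0.77 ± 0.14 in young mice), and Lnpk, beside Hoxd (-0.56 ± 0.18 in young and -1.04 ± 0.22 in old mice). With age in HSC Snf8 (-0.42 ± 0.13) and Mtx2 (-0.69 ± 0.17) fell, where 11.5% of all genes and, tested alone, 23.8% of the brighter genes were called. Of the 12 flanking genes 0 were called without the 7 young arrays or with array spread as a covariate.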

How the data were processed

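The deposited table gave log2 expression values of 23309 probe sets on 15 arrays. RMA, affy and limma are named, without versions, per the submitters' processing notes; the genome build is not given in the sources used here. Probe sets with 1 symbol (20728) were used, and those with several (1174) or none (1407) left out. The brightest probe set stood for each of the 804 genes with more than 1, which left 19296 genes; 37 were Hox genes.

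Group means were fitted over the 15 arrays with limma 3.58.1 in R 4.3.3 (lmFit, eBayes), with p adjusted by Benjamini-Hochberg over all genes and a threshold of 0.05. Array medians ran from 7.25 to 7.42, interquartile ranges from 1.96 to 2.69, correlations within a group from 0.972 to 0.995, and 0 pairs of arrays were identical. The number of arrays limits the precision. In simulated data of 19296 genes few were given a change, fewer than were called here for cell type or for age in HSC. The adjusted threshold was then stricter than in these comparisons, so the rates describe the simulation only. A change of 1 log2 was recovered for 96% of the changed genes for HSC against GMP in young and 87% in old mice. It was recovered for 92% (age in HSC), 89% (age in GMP) and 61% (difference of age effects). For 0.5 log2 these were 48%, 18%, 45%, 23% and 5%.

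Same-numbered young HSC and young GMP arrays deviated together (correlations 0.29, 0.23, 0.16 and 0.52), so their block value is given where it changed a call; the labels do not state a pairing. Other group pairs had a correlation of 0.1 or less for at least 1 number.

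Values by array or by range are given for Hox genes called in any comparison and for Hoxa7, Hoxa9, Hoxa10, Hoxb4, Hoxb5 and Hoxb6. Of the other lists, up to 4 called genes by size in a comparison are named. Cdx1, Mllt1, Hoxa13, Hoxc5, Hoxc9, Hoxd10 and the paralogues of called genes were named after their values were seen. So were the uncalled age differences and the 2 non-coding genes. Genes and lists were chosen with earlier results of these data known. Promoter windows and gene names are from RefSeq (GRCm38.p6); all 37 genes matched by Entrez identifier.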

Additional observations from a re-analysis of the deposited data

Results flagged for a closer look

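In groups of 4 or 5 arrays, 74 combinations of Hox gene and group were examined for a single array far from the others, and 5 were found; chance gives about 1 in 20. All 5 were young HSC arrays. Hoxa9 had 8.36 on replicate 5, where the other 4 arrays had 8.65 to 8.72. Hoxb7 had 7.06 on replicate 1 (others 7.28 to 7.37), Hoxd3 had 6.01 (others 6.37 to 6.51) and Hoxd10 had 7.26 (others 7.04 to 7.11) on the same array. Hoxc10, below background throughout, had 5.60 on replicate 3 (others 5.84 to 5.92).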

How the results depend on the processing

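Of the 21 differences called for single Hox genes, 13 kept their call and direction in every alternative tested. Over 354 values under alternatives 331 kept the call, 23 lost it and 0 changed sign. Leaving out 1 array at a time gave 9 to 12 Hox genes called for HSC against GMP in young mice, 8 to 11 in old mice, 0 to 2 for age in HSC, 0 to 0 for age in GMP and 0 to 0 for the difference of age effects.

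For HSC against GMP, testing only genes brighter than the median gene, which kept 10 Hox genes, gave 5 calls in young and 6 in old mice, and leaving out the young arrays of raised Xist gave 5 in young mice. With the brightness filter 39.3% of all genes tested were called in young and 39.4% in old mice. For age in HSC, where 0 Hox genes were called, quantile normalization gave 2 and the brightness filter 1 (Hoxa6). Of all genes tested 6.79% and 23.8% were then called. Xist as a covariate gave 1 (Hoxb6), with 18.5% of all genes called. Leaving out replicate 4 of both young groups gave 4 (Hoxa6, Hoxb3, Hoxd4, Hoxd13), with 32% of all genes called. The replicate block gave 12 calls in young mice, adding Hoxa7 and Hoxa13, where 30.3% of all genes were called. It gave 12 in old mice, adding Hoxa4 (adjusted p = 0.0282), and 1 for age in HSC (Hoxd13, 0.50). Of all genes 27.5% and 23% were then called. Replicate 1 of old HSC and old GMP had a correlation of 0.05, and replicate 2 of old and young HSC -0.24. Neither these values nor the labels give a basis for the block there. It added or removed no other call. With each array's interquartile range as a covariate the age differences in HSC of Hoxd4 and Hoxd13, 0.26 and 0.32 and neither called, turned to -0.15 and -0.01. Hox genes above background were 16 in old HSC, 17 in young HSC, 14 in old GMP and 17 in young GMP at the 90th percentile, and at the 99th 5 in old HSC, 7 in young HSC, 4 in old GMP and 4 in young GMP. Apart from the filters, which test fewer genes or arrays, the cause of these changes was not tested. The counts of the other gene lists without the young arrays of raised Xist and with array spread as a covariate were chosen after seeing the data.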

Other observations

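One probe set carried the symbols of both Hoxb8 and Hoxb7 and entered no comparison. Its mean was 7.19 ± 0.33 log2 in old HSC (SD, n = 3), where it was above background on 2 arrays, and 6.66 ± 0.41 in young HSC (n = 5), with 1 array above background. In old GMP it was 6.04 ± 0.25 (n = 3) and in young GMP 6.14 ± 0.10 (n = 4), with 0 arrays above background. The probe set of Hoxb7 alone was above background on all 15 arrays, at 7.47 ± 0.23 in old HSC, 7.26 ± 0.12 in young HSC, 7.50 ± 0.07 in old GMP and 7.33 ± 0.12 in young GMP.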
